A study of Danio rerio with 2 samples.

Results

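Monoaminergic neurons make dopamine, noradrenaline or serotonin. Tyrosine hydroxylase (th) starts the synthesis of the catecholamines dopamine and noradrenaline, tryptophan hydroxylase (tph2) starts that of serotonin, and aromatic amino acid decarboxylase (ddc) carries out the next step of both paths. Dopamine beta-hydroxylase (dbh) turns dopamine into noradrenaline, the vesicular transporter slc18a2 loads all of these amines into vesicles, and slc6a3 and slc6a4a take dopamine and serotonin back into the cell. In the zebrafish larva the serotonergic cells lie in the raphe and the hypothalamus, the dopaminergic cells in the olfactory bulb, retina, pretectum and diencephalon, and the noradrenergic cells in the locus coeruleus, the medulla and the sympathetic ganglia.

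These cells were examined in single-cell RNA libraries made from whole heads at 3 days post fertilization (dpf). One library came from 10 pooled heads of polr3a sa907/sa907 mutants, which carry a nonsense allele of the largest subunit of RNA polymerase III, and the other from 10 pooled heads of polr3a +/+ wild-type siblings. All parents were heterozygous carriers, one side bearing the endothelial reporter Tg(fli1a:egfp) and the other the neural crest reporter Tg(sox10:mRFP), so both reporters run in both groups. Embryos were screened for GFP and RFP and genotyped by fin clip, and viable cells were sorted before loading. With 1 library per genotype there is no replicate and no test between genotypes, and every interval below is an exact 95% interval that covers counting error only.

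The cells were chosen by the detection of at least 2 of the 6 genes th, tph2, slc18a2, slc6a4a, slc6a3 and dbh, each by at least 1 unique molecular identifier (UMI, 1 captured transcript). Barcodes were first held to 500 to 20000 UMIs, 500 to 5000 genes and at most 20% mitochondrial UMIs. In all, 230 of 65020 kept cells met this rule, 99 of 27277 in the mutant library (0.363%, interval 0.295 to 0.442%) and 131 of 37743 in the wild-type library (0.347%, interval 0.290 to 0.412%). The median member held 5513 UMIs in the mutant and 4633 in the wild-type library, against 4157 and 3466 in all kept cells, and of the 294 barcode sequences shared by kept cells of both libraries none belonged to a member. The targeted gene did not check the labels, because polr3a gave 6 UMIs in the mutant members and 4 in the wild-type members (9.14 and 5.42 UMIs per 1000000 UMIs, CPM), so mutant and wild-type below mean the libraries so labelled. Levels are CPM, the summed UMIs of a gene over the summed UMIs of a group of cells.

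Detection of a pair of these genes did not by itself separate neurons from other cells. Among epidermal cells, which carry at least 3 of krt4, krt5, cyt1, epcam and cldni and should lack these genes, 7 of 1279 met the rule in the mutant library (0.547%) and 6 of 2072 in the wild-type library (0.290%), at median depths of 7250 and 6098 UMIs. The shares of all kept cells, 0.363% and 0.347%, thus lay below and just above those of a cell type that should lack the genes, and are read neither as the frequency of monoaminergic neurons nor as a difference between the genotypes. When every cell was thinned to 1000 UMIs, 28 of 25537 cells met the rule in the mutant library (0.110%, interval 0.0729 to 0.158%) and 52 of 35023 in the wild-type library (0.149%, interval 0.111 to 0.195%), with 1740 and 2720 shallower cells left out. Of the epidermal cells 0 of 1257 and 0 of 2041 met it, with intervals up to 0.293% and 0.181%. These zeros thus do not put the thinned shares above background. Depth, the sort and the dissociation can each set such a share, and their part was not tested.

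The label was checked with genes that the rule did not use. At least 2 of the pan-neuronal genes elavl3, elavl4, stxbp1a, snap25a and gap43 were present in 70 of 99 mutant and 94 of 131 wild-type members. Many other cells met the same call. Among the 27277 and 37743 kept cells it held for 10340 mutant and 16323 wild-type cells outside the members, called other neurons below. The members were also deeper than the kept cells as a whole. At least 2 markers of another lineage were present in 36 and 47 members, 36.4% and 35.9%, against 39.5% and 35.9% of all kept cells. Endothelial markers were the exception, with 10 mutant members (10.1%) and 8 wild-type members (6.11%) against 1.87% and 1.1% of all kept cells. The decarboxylase ddc, which these neurons need, was in 36 mutant and 49 wild-type members. The data thus show that most members carried neuronal genes, not that each was monoaminergic, and the groups below are called by the genes that define them.

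The share of cells with each rule gene that met the rule is given as a description, since the same genes chose the cells. Of all kept cells with th, 89 of 286 were members (31.1%), and the shares were 45.5% for slc6a3, 37.5% for dbh, 22.8% for slc18a2 and 17.1% for tph2. For slc6a4a only 130 of 3022 cells (4.30%) were members. Cells with slc6a4a and none of the other 5 genes numbered 1381 in the mutant and 1511 in the wild-type library, and 19.3% and 23.8% of them carried the pan-neuronal genes, so most cells with this transporter alone lacked those genes in both libraries.

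Members just inside the limit, with exactly 2 of the genes, numbered 69 in the mutant and 101 in the wild-type library, and 30 cells in each library had 3. Just outside it, 1888 and 2200 cells had exactly 1, and no cell had 4 or more. The decarboxylase ddc, which the rule did not use, was in 0.439% of the mutant cells with none of the 6 genes, 2.81% with 1, 23.2% with 2 and 66.7% with 3. In the wild-type library the shares of cells with ddc were 0.517, 3.45, 29.7 and 63.3%. Its level followed the same order, from 1.11 to 12.1, 110 and 771 CPM in the mutant and from 1.56 to 16.7, 190 and 1853 CPM in the wild-type library. The gene gch1, whose product starts the synthesis of tetrahydrobiopterin, the cofactor of both hydroxylases, reached 308 CPM in the mutant and 153 CPM in the wild-type cells with 3 of the genes, from 1.41 and 1.13 CPM in cells with none. The keratin krt4 ran the other way, and its level fell from 632 CPM with 2 genes to 149 CPM with 3 in the mutant and from 503 to 35.7 CPM in the wild-type library. The collagen gene col6a3 did not fall steadily. With 0, 1, 2 and 3 genes it stood at 53.3, 274, 196 and 5.51 CPM in the mutant library. In the wild-type library it stood at 49.3, 227, 107 and 61.2 CPM.

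**Figure D1:**
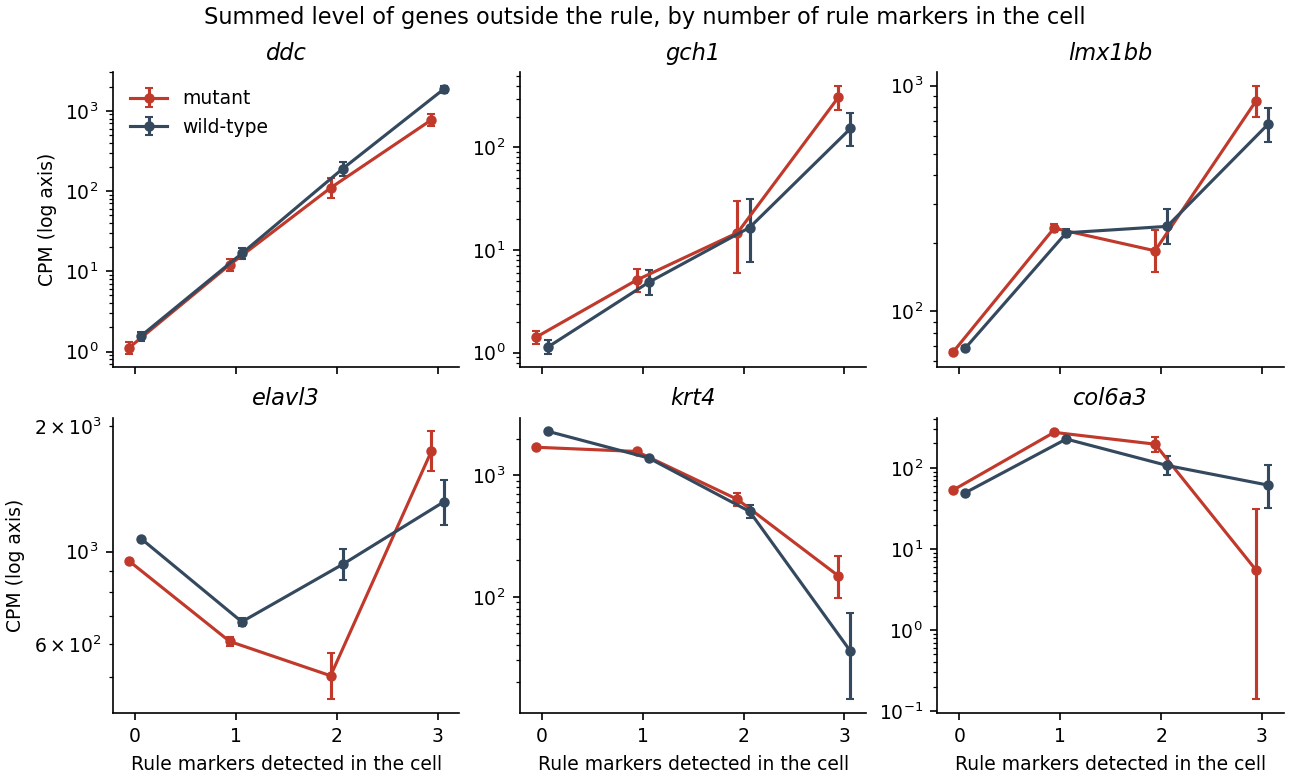
Summed level (CPM, log axis) of 6 genes outside the rule against the number of rule genes detected in the cell, with 1 point per library and 95% counting intervals as bars. The levels of ddc and gch1 are highest in cells with 3 rule genes in both libraries, krt4 is lowest there, and lmx1bb does not keep one order between cells with 1 and with 2. The level of col6a3 is higher in cells with 1 or 2 rule genes than in cells with none.

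The commonest combination was slc18a2 with slc6a4a alone, in 25 mutant and 30 wild-type cells, followed by tph2 with slc6a4a in 13 and 22 and by th with slc18a2 in 11 and 20. The full serotonergic combination of tph2, slc18a2 and slc6a4a was in 12 and 15 cells, and the full dopaminergic combination of th, slc18a2 and slc6a3 in 11 and 5. The 2 hydroxylases th and tph2 were seen together in 1 mutant cell and in no wild-type cell, and slc6a3 was never seen with dbh or with tph2. These genes were rare among the 27277 mutant and 37743 wild-type kept cells. There th was in 119 and 167 cells, tph2 in 206 and 227, slc6a3 in 35 and 31 and dbh in 41 and 55. Genes this rare seldom meet even if independent, so these counts do not show separate cell types. By the 6 rule genes the members fell into 5 groups. There were 28 mutant and 43 wild-type cells with tph2 and none of th, slc6a3 or dbh, 25 and 30 cells with slc6a4a and slc18a2 that lacked tph2, 27 and 30 cells with th or slc6a3 and neither dbh nor a serotonergic gene, 11 and 20 cells with dbh and neither tph2 nor slc6a4a, and 8 and 8 of mixed make-up. The tph2 cells were 28.3% of the mutant and 32.8% of the wild-type members, the th/slc6a3 cells 27.3% and 22.9%, and the dbh cells 11.1% and 15.3%, with intervals that overlap in each pair.

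**Figure D2:**
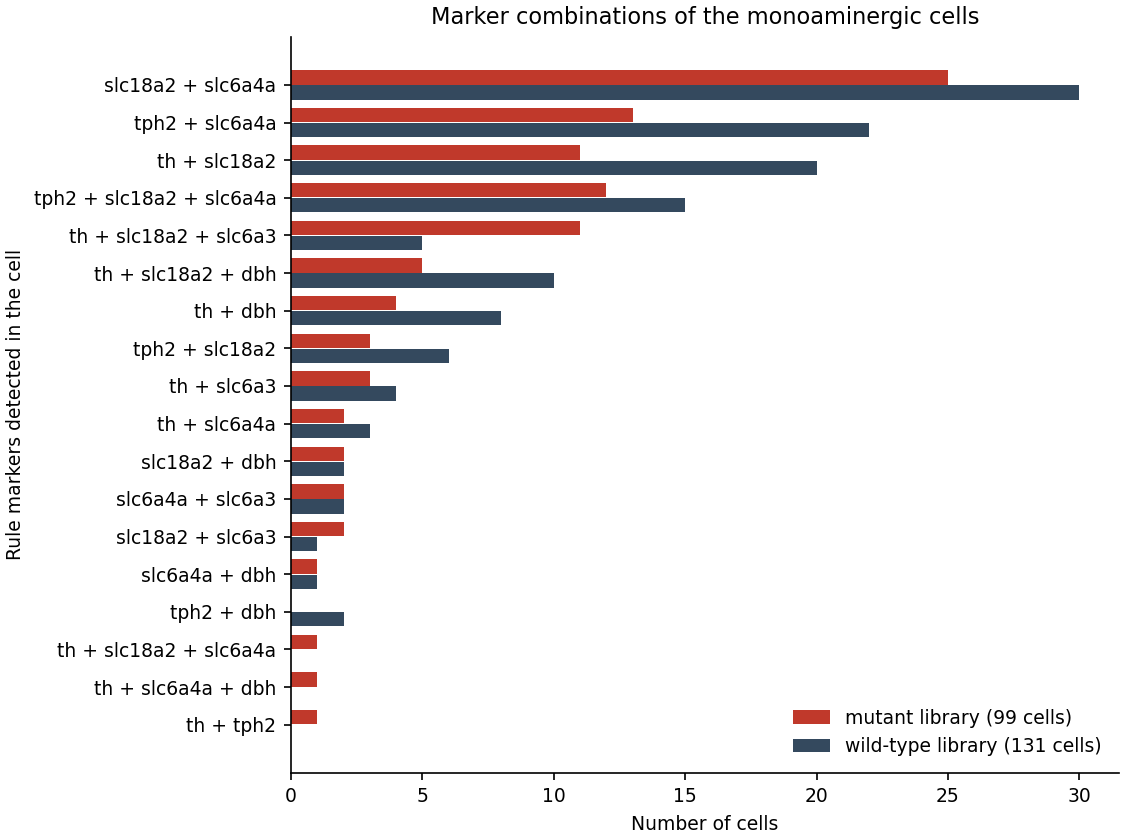
Number of cells with each combination of the 6 rule genes, as bars from 0 for the mutant (99 cells) and the wild-type library (131 cells). The combination slc18a2 with slc6a4a has 25 and 30 cells, and th with slc18a2 and slc6a3 is the one combination of 10 or more cells in which the mutant bar (11) is longer than the wild-type bar (5).

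Most th/slc6a3 cells carried neuronal genes. The pan-neuronal genes were in 26 of 27 mutant and 28 of 30 wild-type cells, and 0 epidermal cells fell in this group in either library, which, taking 3 cells as the limit that a count of 0 allows, leaves up to 0.235% of 1279 and 0.145% of 2072, beside 0.0990% and 0.0795% of all kept cells. The hydroxylase th was in 25 of 27 mutant cells with 531 UMIs and in 29 of 30 wild-type cells with 290 UMIs, at a median of 13 and 5 and at most 76 and 43 in a cell that had it. The dopamine transporter slc6a3 was in 16 mutant and 10 wild-type cells, never above 4 UMIs in a cell. These are the genes that chose the cells and are given as a description.

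Among genes that the rule did not use, nr4a2a, an orphan nuclear receptor of dopaminergic neurons, was in 11 of 27 mutant and 12 of 30 wild-type th/slc6a3 cells, while every other group held at most 1 cell with it. Its paralogue nr4a2b was in 7 and 10 cells. The dopamine receptor gene drd2b was in 15 and 18 cells, with 75 and 69 UMIs (497 and 425 CPM). The T-box factor tbx3a was in 15 and 19 cells, with 175 and 134 UMIs (1160 and 825 CPM), against 6.50 and 5.81 CPM in the other 3 main groups and 45.2 and 34.8 CPM in other neurons. All 11 mutant cells with nr4a2a also had tbx3a, as did 11 of the 12 wild-type cells. The paired-box gene pax10, a relative of pax6, was in 13 and 12 cells, of which 11 in each library also had tbx3a. The uncharacterised si:ch1073-70f20.1 led the group, with 298 UMIs in 10 mutant cells (1975 CPM) and 139 UMIs in 14 wild-type cells (855 CPM), and at most 92 and 35 UMIs in 1 cell. Other leaders were si:ch211-131k2.2 in 3 and 6 cells and LOC100335005 in 14 and 7 cells.

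A smaller set of th/slc6a3 cells carried otpa, the homeobox factor that zebrafish diencephalic dopaminergic neurons need. It was in 2 mutant cells with 3 UMIs and in 6 wild-type cells with 120 UMIs, of which the highest held 46, and only 1 and 2 of these cells also had tbx3a. The paralogue otpb was in 1 and 4 cells. The homeobox genes of forebrain GABA neurons were present too, dlx2a in 3 and 7 cells with 14 and 73 UMIs and dlx5a in 5 and 9 cells with 55 and 82 UMIs. The second tyrosine hydroxylase gene th2, expressed in the hypothalamus, was in 3 and 6 cells. Genes of the hypothalamus list were in 8 of 27 and 14 of 30 cells, against 19.1% and 17.5% of other neurons. Genes of the telencephalon list were in 8 and 11 cells, against 17.7% and 19.1% of other neurons. Hindbrain hox genes were in 2 and 3 cells, against 23.9% and 22.1%. Genes of the retinal amacrine list were in 17 of 27 and 19 of 30 cells, against 56.96% and 56.41% of other neurons. That list thus did not set these cells apart from other neurons. The factor tfap2a, listed with the retinal amacrine genes, was in 12 and 7 cells, and tfap2b was in 2 and 3. Of the remaining dopaminergic list, dlx6a was in 6 and 7 cells, sim1a in 3 and 2, drd2a in 2 and 1, etv1 in 1 and 1, pitx3 in 1 and 0 and arxa in 0 and 1, and drd3 had no UMI. Serotonin receptor genes were found here too, htr1aa in 3 and 5 cells, htr1ab in 0 and 2 and htr1b in 1 and 0.

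Of the enzymes of the amine path, gch1 stood higher in the mutant library within this group, and the comparison of ddc rested on 1 cell. The decarboxylase ddc was in 18 of 27 mutant cells with 100 UMIs and in 11 of 30 wild-type cells with 109 UMIs, and 79 of the wild-type UMIs came from 1 cell. The summed level was 663 CPM in the mutant and 671 CPM in the wild-type library, and without the cell of each library that held the most it was 597 and 199 CPM (intervals 477 to 737 and 134 to 284). The intervals of the shares of cells with ddc, 46.0 to 83.5% and 19.9 to 56.1%, overlap. The gene gch1 was in 10 mutant cells with 46 UMIs and in 4 wild-type cells with 14 UMIs (305 CPM, interval 223 to 407, and 86.1 CPM, interval 47.1 to 145), and at 244 and 39.8 CPM without the top cells. Of the 46 mutant UMIs of gch1, 45 lay in the 14 cells that had both th and slc6a3.

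The tph2 cells divided by the vesicular transporter. Of the 28 mutant and 43 wild-type cells, 15 and 21 had slc18a2, and in these the pan-neuronal genes were in 15 of 15 and 18 of 21. The transcription factors of the raphe were common in them. The LIM-homeobox gene lmx1bb was in 13 of 15 mutant cells with 144 UMIs and in 15 of 21 wild-type cells with 123 UMIs. The ETS gene fev (Pet1 of the mouse), which marks serotonergic neurons, was in 8 and 8 cells with 81 and 40 UMIs, gata3 in 11 and 12 cells and gata2a in 6 and 12 cells. The related gene lmx1al, which leads the members over other cells, was in 13 and 16 cells with 157 and 89 UMIs. Genes of the midbrain and first rhombomere list were in 12 of 15 and 19 of 21 of these cells, against 34.4% and 38.7% of other neurons. That list holds gata2a and gata3 themselves, so its count does not stand apart from theirs and gives no region.

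The other 13 mutant and 22 wild-type tph2 cells had slc6a4a and no slc18a2, and the pan-neuronal genes were in 5 and 13 of them. Here lmx1bb was in 5 and 11 cells, fev in 1 and 8, and ddc in 1 and 4. The collagen gene col6a3, a mesenchymal transcript, was in 5 and 6 of these cells, against 0 of 15 and 2 of 21 of the tph2 cells with slc18a2. Among epidermal cells, 2 mutant and 3 wild-type cells fell in the tph2 group (0.156% and 0.145%), no lower than its share of all kept cells, 0.103% and 0.114%. Leaders of the tph2 cells over the other groups were mostly genes of other cell types carried by few cells. The cone opsin gene opn1mw1 had 450 of its 450 mutant UMIs and 201 of its 216 wild-type UMIs in 1 cell, spon2b was in 3 and 2, htra3b in 3 and 3 and scara5 in 3 and 3. The exception was gfra1b, which encodes a receptor for neurotrophic ligands, in 7 and 8 cells. Among the other serotonergic genes lmx1ba was in 12 and 11 tph2 cells, gata2a in 9 and 20, insm1a in 3 and 2 and nkx2.2a in 1 and 4.

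Across all tph2 cells the other tryptophan hydroxylase genes tph1a and tph1b were nearly absent, with tph1a in 1 wild-type cell and tph1b in none, and the second transporter gene slc6a4b had no UMI. The serotonin receptor gene htr1d was in 6 and 6 tph2 cells. The factor fev was not limited to members, since 146 mutant and 220 wild-type cells outside the members carried it, at 3.36 and 3.13 CPM.

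In the tph2 cells with slc18a2 the path enzymes stood higher in the mutant library. The decarboxylase ddc was in 10 of 15 mutant cells with 62 UMIs (885 CPM, interval 679 to 1135) and in 8 of 21 wild-type cells with 17 UMIs (186 CPM, interval 109 to 298). The cofactor enzyme gch1 was in 5 mutant cells with 7 UMIs and in 0 wild-type cells. The same cells had fev at 1157 CPM (interval 919 to 1438) in the mutant and 438 CPM (interval 313 to 597) in the wild-type library, and the pan-neuronal gene elavl3 at 2599 and 1458 CPM. These differences exceeded the counting error, which leaves out the spread between cells. With a single pool of heads per genotype the spread between pools is also unknown. Over all tph2 cells, 1 cell held 15 of 65 mutant and 7 of 28 wild-type UMIs of ddc. For fev, 1 cell held 24 of 92 and 9 of 66. Other markers moved in the tph2 cells with slc18a2. Immature and progenitor genes were at 2199 CPM in the mutant and 7048 CPM in the wild-type library, and glial genes at 71.4 and 877 CPM (5 and 80 UMIs). Hindbrain hox genes were in 1 of 15 mutant and 8 of 21 wild-type cells. Their part in these differences was not tested.

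The slc6a4a cells without tph2 were the most mixed of the larger groups. They all carried slc18a2 as well, since the rule asked for 2 genes, with 61 UMIs in 25 mutant and 76 UMIs in 30 wild-type cells and a median of 1 UMI in a cell. Endothelial markers were in 8 of 25 and 8 of 30 of these cells, the pan-neuronal genes without endothelial markers in 8 and 12, and neither in 9 and 10. The endothelial receptor gene tie1 was in 9 mutant cells with 98 UMIs and in 7 wild-type cells with 56 UMIs, and it was absent from every other group. Other leaders were sox7 in 8 and 5 cells and kdrl, a vascular growth factor receptor, in 5 and 7. The pigment genes pmela and tyrp1b also led this group, but 116 of 116 and 149 of 149 mutant UMIs came from 1 cell. The gene si:ch211-196h16.12 was in 2 and 4 cells and tfr1a in 2 and 2. The other tryptophan hydroxylases lay mainly in this group, tph1a in 0 mutant and 3 wild-type cells and tph1b in 2 and 4. The decarboxylase ddc was in 0 of 8 and 0 of 8 cells with endothelial markers, in 2 of 8 and 5 of 12 of the neuronal cells, and in 0 of 9 and 4 of 10 of the rest.

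**Figure D3:**
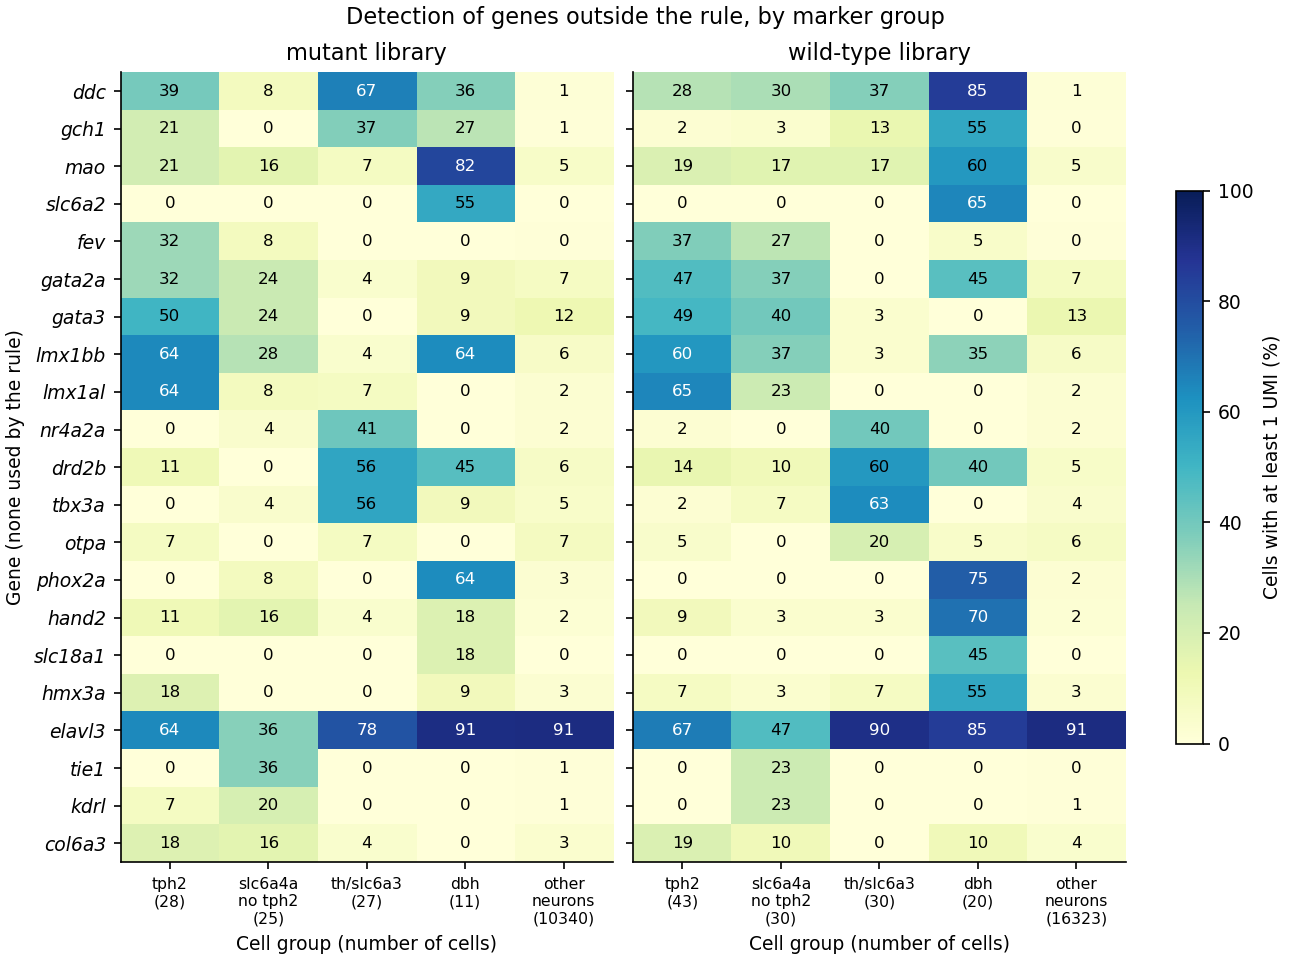
Share of cells (%) with at least 1 UMI of 21 genes that the rule did not use, in the 4 main groups and in other neurons of each library (number of cells in brackets). The genes nr4a2a and tbx3a are found in the th/slc6a3 cells, lmx1al and fev mainly in the cells with tph2 or slc6a4a, slc6a2 and phox2a in the dbh cells, and tie1 in the slc6a4a cells without tph2. Within the dbh cells hand2 is in 2 of 11 mutant and 14 of 20 wild-type cells and hmx3a in 1 and 11.

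The dbh cells carried the genes of noradrenergic neurons. The noradrenaline transporter slc6a2 was in 6 of 11 mutant cells with 35 UMIs and in 13 of 20 wild-type cells with 51 UMIs. The homeobox factor phox2a, which noradrenergic neurons of the hindbrain and of the sympathetic ganglia need, was in 7 mutant cells with 24 UMIs and in 15 wild-type cells with 128 UMIs, and phox2bb was in 5 and 7 cells. Neither slc6a2 nor phox2a was found in a tph2 or th/slc6a3 cell, and the alpha-2 adrenoceptor genes were sparse, with adra2c in 3 and 3 dbh cells, adra2a in 2 and 3, adra2da in 1 and 2 and adra2b in none. Hindbrain hox genes were in 9 of 11 and 14 of 20 dbh cells, against 23.9% and 22.1% of other neurons. The monoamine oxidase gene mao, whose product breaks amines down, was in 9 mutant cells with 37 UMIs and in 12 wild-type cells with 26 UMIs. Leaders of this group over the others were insm2 in 4 and 13 cells, hoxb5b in 3 and 8, hoxb1b in 2 and 6, and cyb561, which encodes the cytochrome that feeds electrons into amine vesicles, in 5 and 13. The pan-neuronal genes were in 10 of 11 and 18 of 20 cells, and the median cell held 9957 UMIs in the mutant and 4784 in the wild-type library. Among epidermal cells, 2 mutant cells (0.156%) and 0 wild-type cells fell in the group. In the mutant library its share of all kept cells, 0.0403%, was thus no higher than background. The wild-type share, 0.0530%, was not shown to exceed background either, since a count of 0 allows up to 0.145% of 2072.

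The transcription factor hand2, which zebrafish sympathetic neurons need for their noradrenergic identity, was in 2 of 11 mutant dbh cells with 5 UMIs and in 14 of 20 wild-type dbh cells with 259 UMIs, of which no cell held more than 58. The shares were 18.2% (interval 2.28 to 51.8%) and 70.0% (interval 45.7 to 88.1%), and the intervals overlap. Across all kept cells that carried dbh, hand2 was in 4 of 41 in the mutant and 17 of 55 in the wild-type library (9.76%, interval 2.72 to 23.1%, and 30.9%, interval 19.1 to 44.8%). The gene itself was not rarer in the mutant head, since hand2 was in 1390 of 27277 mutant cells (5.10%) and in 1734 of 37743 wild-type cells (4.59%), and in 1.75% and 1.87% of other neurons. The split of the dbh cells by hand2 was made after the values were seen.

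The 14 wild-type dbh cells with hand2 shared further genes. The vesicular transporter slc18a1, which in mammals belongs to chromaffin and other endocrine cells, was in 9 of them with 84 UMIs, between 0 and 24 in a cell, and in no other kept wild-type cell. In the mutant library slc18a1 was found in 5 kept cells at all, 3 of them members, each with 1 UMI. The homeobox gene hmx3a was in 11 of the 14 cells with 56 UMIs, and chrna3, a nicotinic receptor subunit of autonomic ganglia, was in 9 with 22 UMIs. The granin gene scg2a was in 13 with 129 UMIs, agtr1a in 8 and gata2a in 9. None of slc18a1, chrna3, hmx3a and gata2a was found in the 6 wild-type dbh cells without hand2. These 6 cells carried lmx1bb in 5, against 2 of the 14, and slc6a2 in 4, with 29 UMIs against 22 in the 14. Apart from slc18a1, hand2, gata2a, lmx1bb and slc6a2, which the lists or the ratios name, these genes were chosen after their values were seen.

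Of the 11 mutant dbh cells, 9 lacked hand2. These 9 cells carried lmx1bb in 7 and slc6a2 in 6, hmx3a and chrna3 in none, and slc18a1 and gata2a in 1 each. The hox gene hoxd3a was in 5 of these 9 cells and in both mutant cells with hand2, against 1 of 6 and 1 of 14 in the wild-type library. The 2 mutant cells with hand2 held 1 and 4 UMIs of it and 2 and 3 of dbh, with no ddc, while the 14 wild-type cells held 1 to 58 UMIs of hand2 and 1 to 98 of dbh. Markers of another lineage were in 5 of 11 mutant and 5 of 20 wild-type dbh cells, those of erythrocytes in 3 and 0. Pineal genes stood at 1521 CPM in the mutant and 17.8 CPM in the wild-type dbh cells, in 3 and 1 cells, and glial genes at 517 and 160 CPM. Their part in the difference was not tested.

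The values of th and dbh on either side of this split are a description, since both genes served to choose the cells. In the 14 wild-type cells with hand2, th had 551 UMIs (between 1 and 145 in a cell), dbh 312 (between 1 and 98) and ddc 290 (between 0 and 78). In the 6 wild-type cells without it th had 26 UMIs, dbh 57 and ddc 10. In the 9 mutant cells without hand2, th had 54 UMIs, dbh 60 and ddc 24. As levels in the cells without hand2, th stood at 704 CPM in the mutant and 1089 CPM in the wild-type library (intervals 529 to 918 and 711 to 1596), ddc at 313 and 419 CPM (intervals 200 to 465 and 201 to 770) and dbh at 782 and 2388 CPM (intervals 597 to 1007 and 1809 to 3094). For ddc, which the rule did not use, the intervals overlap. The depth of the cells without hand2 also differed, with a median of 9138 UMIs in the mutant and 3421 in the wild-type library, and its part was not tested.

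**Figure D4:**
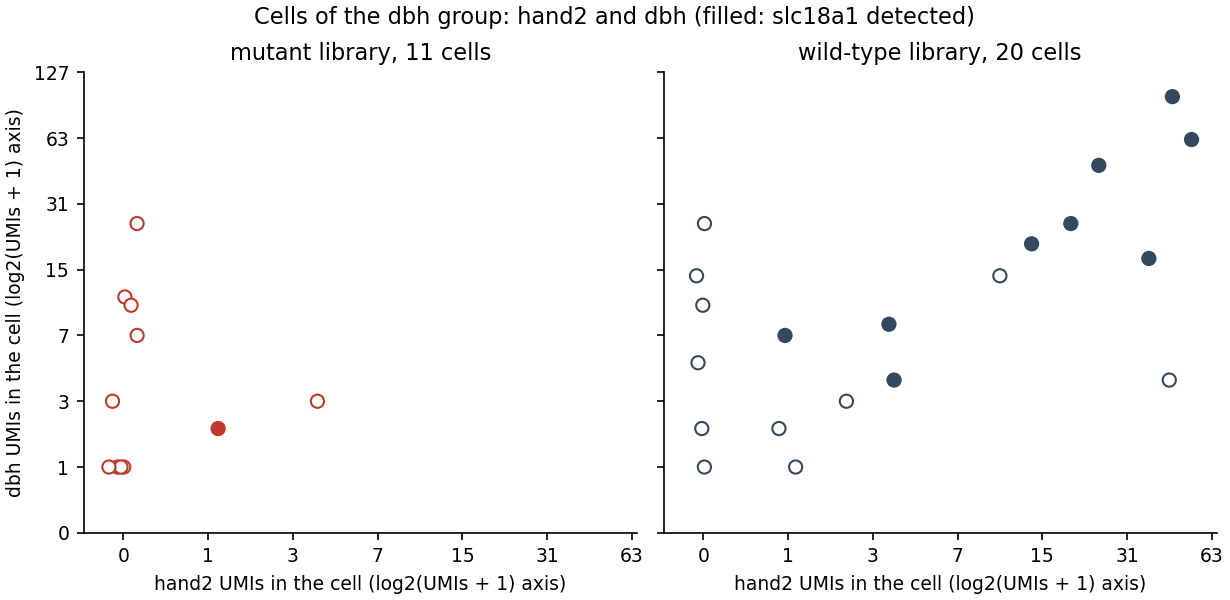
UMIs of dbh against UMIs of hand2 in each of the 11 mutant and 20 wild-type dbh cells (both axes log2(UMIs + 1), with points spread slightly along the horizontal axis), filled where slc18a1 was detected. In the wild-type panel 14 cells lie right of 0, up to 58 UMIs of hand2, and in the mutant panel 2 do, at 1 and 4.

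Over all members, the genes that stood highest above the other cells came from the amine path, from single groups and from endothelium. At a level 4-fold or more above all other kept cells in both libraries there were 66 of 5978 genes with enough UMIs (1.1%), led by ddc at 293 against 2.01 CPM in the mutant and 631 against 2.56 CPM in the wild-type library. The next 4 were si:ch211-196h16.12, si:ch1073-70f20.1, si:ch211-131k2.2 and cplx3a, of which the complexin gene cplx3a acts in vesicle release and was found, among members, only in th/slc6a3 cells, in 12 and 10 of them. For si:ch211-196h16.12, 1 cell held 126 of 128 mutant and 77 of 259 wild-type UMIs. For si:ch211-131k2.2, 1 cell held 30 of 53 mutant and 55 of 94 wild-type UMIs of the th/slc6a3 cells. After these leaders came slc6a2, fev, gch1 (96.0 against 1.71 and 52.8 against 1.38 CPM), cyb561 and lmx1al. Others were the calcium-binding protein gene scgn in 4 and 12 cells, plcxd3 in 27 and 46 cells, LOC100332608 in 7 and 19 and si:dkey-219c10.4 in 4 and 7. The endothelial gene tie1 ranked 15, and pecam1, clec14a and flt1, also endothelial and named after their values were seen, were among the 25 leaders. Since the cells were chosen by genes of the same path, this order is a description. The remaining enzymes of the shared path were low, with qdpra at 27.4 and 37.9 CPM, pcbd1 at 32.0 and 42.0, spra at 10.7 and 13.5, qdprb1 at 15.2 and 13.5, pts at 0 and 5.42, comta at 24.4 and 25.7 and comtb at 6.09 and 4.06 CPM in the mutant and wild-type members. The histamine-forming enzyme gene hdc had 0 and 2 UMIs and the histamine receptor gene hrh3 0 and 2.

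Fast transmitters and peptides varied by group. At least 1 gene of the fast transmitter list was in 46.5% of mutant and 57.3% of wild-type members, against 63.8% and 59.0% of other neurons. At least 1 gene of the peptide and granin list was in 56.6% and 56.5% of members, against 54.5% and 51.9% of other neurons. The glutamate decarboxylase gene gad2, which makes GABA, was in 10 of 27 and 15 of 30 th/slc6a3 cells with 31 and 34 UMIs, in 5 and 12 tph2 cells, and in 1 and 1 dbh cells. The vesicular GABA transporter slc32a1 was in 5 and 10 th/slc6a3 cells and in 6 and 6 tph2 cells. Of the vesicular glutamate transporters, slc17a6a was in 4 of 11 and 2 of 20 dbh cells and in 0 and 2 th/slc6a3 cells, and slc17a6b was in 5 and 3 dbh cells and in 3 and 3 th/slc6a3 cells. Of the peptide and granin genes, scg3 was the most widespread, in 33 mutant and 49 wild-type members (163 and 150 CPM), followed by scg2b in 19 and 23 and adcyap1b, which encodes PACAP, in 17 and 18. The granin gene chga was in 10 and 15 members and vgf in 8 and 9. The peptide genes npy, galn, hcrt, oxt and avp had no UMI in any member.

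Between the libraries, genes were called in members as a whole. Of 5717 genes with at least 50 UMIs over both libraries, 180 were 2-fold or more higher in the mutant with an interval above 0 (3.15%) and 158 were lower (2.76%). The median log2 ratio of the 5717 genes was 0.01. By the same call other neurons had 251 of 20550 genes higher and 272 lower. Of the genes called in members, 46 of the 180 and 31 of the 158 had at least 1 cell that alone supplied 50% or more of the UMIs. The highest ratio among genes seen in both libraries was that of rho, the rod opsin, with 1159 against 11 UMIs, of which 1136 lay in 1 mutant cell, and without the top cells its log2 ratio was 1.54. Further along, epd had 79 against 2 UMIs with 77 in 1 cell, insb 58 against 0 in 1 cell, si:ch211-113d22.2 60 against 0 with 58 in 1 cell, and si:dkey-205h13.2 63 against 0 in 1 cell. The genes f8 (231 against 0 UMIs) and gstp2 (54 against 0) were in 4 mutant cells each, and cfd had 303 against 14 UMIs in 4 and 1 cells. Of their mutant UMIs, 1 cell held 89 for f8, 36 for gstp2 and 211 for cfd.

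The lowest ratios were in part the genes of the groups above. They included slc18a1 (3 against 84 UMIs, log2 ratio -4.64, interval -6.94 to -3.04) and otpa (5 against 150 UMIs, log2 ratio -4.74, interval -6.38 to -3.48, and -4.94 without the top cells). The gene vwa5b2 had 2 against 79 UMIs in 2 and 11 cells (log2 ratio -5.13), and si:dkey-85n7.8 had 0 against 51 UMIs in 11 wild-type cells. For si:dkey-9l20.3, wu:fc46h12, si:ch211-251f6.6 and si:ch211-117m20.5 most UMIs came from 1 wild-type cell, with 199 of 201, 662 of 684, 42 of 54 and 358 of 363, and si:ch211-117m20.5 turned to a log2 ratio of 0.44 without the top cells. Outside the members otpa had log2 ratios of 0.09 in other neurons and -0.16 in all other kept cells, so the gap was seen in these few cells and not in the head.

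Genes of the amino acid and integrated stress response stood higher in the mutant members. Their summed level was 2069 CPM in the mutant and 1326 CPM in the wild-type library, a log2 ratio of 0.64 (interval 0.52 to 0.76). Of the 20 genes with at least 10 UMIs, 12 were higher beyond counting error and 1 lower, where 7.6% of all 13401 such genes were higher and 6.76% lower, and the list's median log2 ratio was 0.64 against 0.02 over all genes. The paper had reported atf4b, ddit3, chac1 and aars as higher in these same libraries, so the list was not chosen apart from the data and these counts are a description. The serine synthesis gene psat1 had 76 against 25 UMIs (log2 ratio 1.77, interval 1.11 to 2.49) and the serine and alanine transporter slc1a4 had 65 against 21 (1.80, interval 1.07 to 2.58). The amino acid transporter genes slc7a5 and slc3a2b had log2 ratios of 1.36 and 0.79, and atf4b, ddit3 and chac1 had 0.46, 0.54 and 0.64. The exception was mat2ab, with 20 against 54 UMIs (log2 ratio -1.26, interval -2.08 to -0.50), of which 48 of the wild-type UMIs lay in the 14 dbh cells with hand2, while in other neurons its log2 ratio was 2.25. In those other neurons all 20 genes of the list were higher beyond counting error, where 31.4% of all genes were higher and 12.1% lower, and the summed log2 ratio was 0.92 (interval 0.91 to 0.93). By group the summed log2 ratio of the list was 0.33 in the tph2 cells, 0.96 in the slc6a4a cells without tph2, 0.49 in the th/slc6a3 cells and 0.27 (interval -0.03 to 0.58) in the dbh cells. In cells with 3 of the 6 genes it was 0.08, and without members over 10000 UMIs, which were 25.3% of the mutant and 15.3% of the wild-type members, it was 0.45.

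Genes linked to the p53 pathway gave a smaller and less even difference. The summed log2 ratio was 0.43 (interval 0.30 to 0.57) in members and 0.77 in other neurons. Of the 6 genes with at least 10 UMIs in members, ccng1 (log2 ratio 0.76, interval 0.42 to 1.11) and btg2 (0.47, interval 0.30 to 0.65) were higher beyond counting error and none lower. Of all 13401 such genes 7.6% were higher and 6.76% lower, and the list's median log2 ratio was 0.53 against 0.02 over all genes. The paper had reported mdm2 and cdkn1a of this list as higher in these same libraries. The cell cycle inhibitor gene cdkn1a had 12 against 9 UMIs in members (log2 ratio 0.58, interval -0.78 to 2.01), while its log2 ratio in other neurons was 2.0. By group the summed log2 ratio was -0.49 in the tph2 cells, 1.1 in the slc6a4a cells without tph2, 0.47 in the th/slc6a3 cells and -0.56 in the dbh cells. Without the slc6a4a cells that lack tph2 it was -0.18 over the remaining members, so the sign over all members rested on that group.

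The shared enzymes of the amine path were lower in the mutant members as a sum, at a log2 ratio of -0.59 (interval -0.78 to -0.41), with ddc at -1.11 (interval -1.36 to -0.86) and gch1 at 0.86 (interval 0.26 to 1.48). The sum turned to 0.24 without the dbh cells, and by group it was 1.21 in the tph2 cells, -1.31 in the slc6a4a cells without tph2, 0.15 in the th/slc6a3 cells and -2.10 in the dbh cells. The sum also turned to 0.27 without members over 10000 UMIs and to 0.13 without cells that carry another lineage's markers. The genes of vesicle release had a summed log2 ratio of -0.06 (interval -0.15 to 0.02) over all members but of -1.65 (interval -1.93 to -1.37) in the slc6a4a cells without tph2, of which 11 of 25 mutant and 15 of 30 wild-type cells carried the pan-neuronal genes. Among them syt1a was at -0.23, snap25a at -0.43 and sypb at 0.43, and the other 10 were within counting error in all members. The lists of the transmitter groups were lower in the mutant as sums, serotonergic at -0.17 (interval -0.31 to -0.03, 1 of 11 genes higher and 4 lower, but 0.11 with an interval of -0.04 to 0.26 in members with the pan-neuronal genes), dopaminergic at -0.96 (0 of 12 higher, 4 lower) and noradrenergic at -0.98 (0 of 8 higher, 2 lower). Among all genes with at least 10 UMIs in members, 7.6% were higher and 6.76% lower. In the tph2 cells the serotonergic list stood at 0.77 (interval 0.59 to 0.95), and in the slc6a4a cells without tph2 at -1.62 (6 of 7 genes lower). The pan-neuronal list stood at -1.69 in those cells (5 of 5 lower). These 2 list counts take genes of at least 10 UMIs with an interval below 0, and have no like share of all genes beside them. The median log2 ratio of all 7072 genes of at least 10 UMIs in those cells was -0.02. By the stricter call, 132 of 1307 genes with at least 50 UMIs there were 2-fold or more higher and 142 lower. In the th/slc6a3 cells the dopaminergic list stood at -0.89 (254 against 506 UMIs), with a median of -0.36 and 3 against 120 UMIs from otpa. In the dbh cells the noradrenergic list stood at -1.93 (123 against 524 UMIs), with a median of -0.55 and 5 against 259 UMIs from hand2. Over all members, fast transmitter genes stood at -0.50, neuropeptides at -0.14, pan-neuronal genes at -0.10 and immature and progenitor genes at 0.24. The sum of the immature and progenitor genes ran against their median of -0.38 (2 of 10 higher, 4 lower) and spanned -1.71 in the tph2 cells to 1.45 in the dbh cells.

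**Figure D5:**
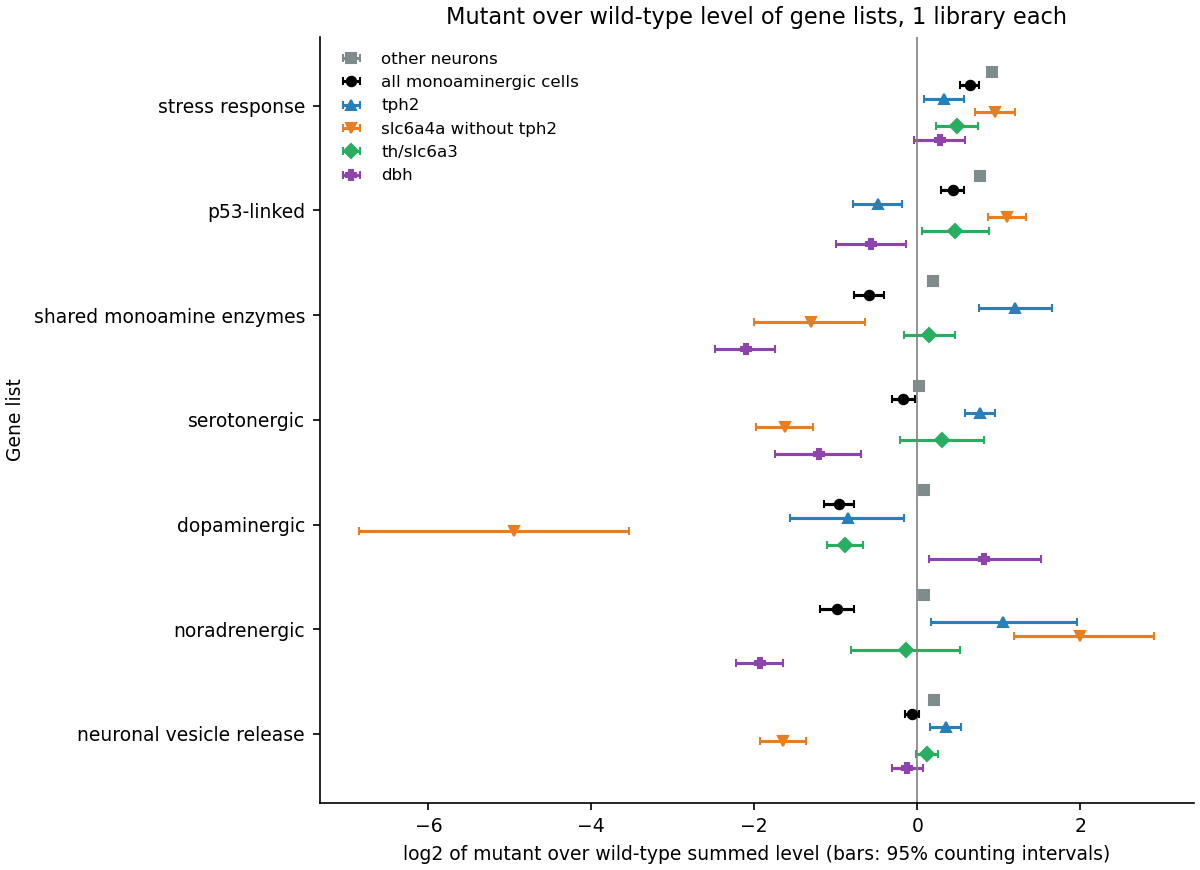
Log2 ratio of the summed level of 7 gene lists, mutant over wild-type library, with 95% counting intervals as bars and a grey line at 0. The sets are other neurons, all members (labelled all monoaminergic cells, though not each was shown to be one) and the 4 main groups. The stress response list lies right of 0 in all 6 sets of cells, although its interval reaches -0.03 in the dbh cells, whereas the shared monoamine enzymes range from -2.10 in the dbh cells to 1.21 in the tph2 cells.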

How the data were processed

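Single-cell libraries were made with the 10x Genomics GEM-X 3' chemistry from zebrafish heads at 3 dpf, 1 library per genotype. The authors deposited whole-number UMI counts per gene and barcode, made with Cell Ranger (version 8.0.0 per the file headers) on GRCz11 per the submitters' processing notes. The 2 libraries held 32228 mutant and 43611 wild-type barcodes, and 27277 and 37743 passed the filters, with 136913110 and 164266670 UMIs. Depth limits single genes: a count of 0 in a group allows up to 3 UMIs.

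Counts were summed per group of cells and divided by all UMIs of the group (CPM). Intervals were Clopper-Pearson for shares, exact Poisson for counts and conditional binomial for log2 ratios, all at 95%. A gene was called between libraries with at least 50 UMIs, 2-fold or more and an interval on one side of 0. Python 3.11.15, numpy 2.4.6, scipy 1.17.1, pandas 2.3.3 and matplotlib 3.10.9 were used. The counting intervals and calls were tested on simulated data that held counting error alone. That test has no spread between cells or pools, so it cannot show how the calls behave under such spread. No test between genotypes was possible with 1 library each.

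Members, gene lists and the lists' genes were chosen with earlier results of these data known. Named genes were the 6 rule genes, the detected genes of the amine enzyme, serotonergic, dopaminergic, noradrenergic and histaminergic lists, the highest genes of the other lists, the 15 leading genes of members, the 6 of each group, and the 8 highest and 8 lowest called ratios between libraries. Listed symbols isl1a, pnmt, cckb, cart3, her4.1, dcx, hbae1.1, gjb7, piezo2a.2, aars1 and rps27l were not matched. Cells with at least 2 markers of a lineage count as carrying that lineage's markers. No doublet caller was run, and 25 mutant and 20 wild-type members over 10000 UMIs were kept and left out in an alternative. Alternatives changed the filters, the number of rule genes, the depth, the weight of cells and the UMI minimum. The sets without the slc6a4a cells that lack tph2, without endothelial markers, without dbh cells and without deep cells, the split by hand2, and ddc and gch1 without their top cells in the th/slc6a3 cells, were chosen after seeing the data.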

Additional observations from a re-analysis of the deposited data

Results flagged for a closer look

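Barcodes outside the filters were not used in the comparisons, and 35 of them in the mutant and 37 in the wild-type library carried at least 2 of the 6 genes. Of these, 30 and 32 exceeded 20000 UMIs, and the median barcode held 37187 and 33567 UMIs. The pan-neuronal genes were in 24 and 21 of them, and at least 2 markers of another lineage in 25 and 31, against 36 of 99 and 47 of 131 members. By group, 7 and 8 were th/slc6a3 barcodes, 9 and 8 tph2 barcodes and 3 and 2 dbh barcodes. Among the barcodes over the UMI limit, hand2 was in 3 of 30 and 3 of 32.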

How the results depend on the processing

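The share of kept cells that met the rule was 0.110% in the mutant and 0.0795% in the wild-type library with 3 of the 6 genes, 0.110% and 0.149% after thinning, 0.231% and 0.223% without cells with another lineage's markers, 0.257% and 0.249% with the pan-neuronal genes required, and 0.271% and 0.268% without the slc6a4a cells that lack tph2. Without members over 10000 UMIs the mutant share was 0.271%. Cells with serotonergic genes made up 40% of mutant members with 3 genes and 42.9% without other lineages, cells with dbh 33.3% of wild-type members with 3 genes, and mixed cells 0% of wild-type members with 3 genes and 2.13% with the pan-neuronal genes (6.67% and 4.29% of mutant members).

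The stress list's log2 ratio was 0.88 without limits on barcodes, 0.082 with 3 genes, 0.41 with equal weight per cell and 0.45 without deep members. The p53-linked ratio was 0.66 without limits, 0.056 without other lineages, 0.29 with wild-type group shares, 0.16 without endothelial markers and 0.084 without deep members, and it reversed to -0.45 with 3 genes and -0.18 without the slc6a4a cells that lack tph2. The enzyme ratio was -0.93 without limits, -0.053 with equal weight and -0.40 without the slc6a4a cells that lack tph2, and it reversed to 0.13 without other lineages, 0.24 without dbh cells and 0.27 without deep members. Genes called higher numbered 472 at 20 UMIs, 69 at 100 and 101 without other lineages, and genes called lower 367, 70 and 100, and 286 without limits. These settings also change the number of genes tested, so the counts do not show whether the rate of calls changed. Genes 4-fold higher in members numbered 150 against other neurons, beside 66 of 5978 against all other kept cells. Without the top cell si:ch211-117m20.5 reversed to 0.44, and ddc in th/slc6a3 cells moved from a log2 ratio of -0.02 to 1.59. The cause was not tested, apart from the fewer cells or genes that a setting leaves.

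No paired analysis was possible because each genotype has 1 library. Groups of 8 to 43 cells, intervals that cover counting error alone and a rule that epidermal cells meet at a like share limit every value. The split by hand2 left subsets as small as 2 mutant and 6 wild-type cells. Genotype, pool, the cut of the heads at the pectoral fin, dissociation and sort cannot be told apart.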
